A study of Mus musculus with 6 samples.

Results

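Plasminogen activators, their cell-surface receptor and the serpins that inhibit them were examined in libraries of a mouse cell line labelled as controls or as a knockout of Maoa, which encodes the mitochondrial monoamine oxidase A. The set holds 5 genes, taken by symbol from a table of 15836: Plau, Plat, Plaur, Serpine2 and Serpinb2. They were picked with their counts in these libraries in view, so their own differences between the groups are a description and carry no test. The study's title concerns serotonin and immune exclusion in pancreatic cancer. RNA came from cultured cells of a line labelled CAF, an abbreviation used for cancer-associated fibroblast, from a pancreatic tumor. The 3 control libraries (NC-1 to NC-3) are labelled wt and control. The 3 MAOA-KO libraries (KO-1 to KO-3) are labelled MAOA ko and MAOA knockout, while their description says knockdown. The labels name no mouse strain, clone or guide, and do not say whether the replicates are separate cultures, so p-values measure only the spread between these 6 libraries.

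Plasminogen circulates as an inactive protease precursor. Urokinase (uPA, encoded by Plau) and tissue plasminogen activator (tPA, encoded by Plat) cleave it to plasmin, which degrades fibrin and other matrix proteins and can activate matrix metalloproteinases. The urokinase receptor (uPAR, encoded by Plaur) is tethered to the membrane by a lipid anchor and concentrates urokinase at the cell surface. Serpins trap these proteases in a covalent complex: Serpinb2 encodes PAI-2, an inhibitor of urokinase that is largely kept inside the cell, and Serpine2 encodes protease nexin-1, which inhibits thrombin, urokinase, tPA and plasmin. In tumour stroma the system is known for matrix breakdown and cell migration.

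Promoter windows from RefSeq (GRCm38.p6), 250 bases before to 50 after a start site, were at hand for 3 of the 5 genes. These were Serpinb2, Serpine2 and Plaur, and windows of these genes are shown. Whether the motifs bear on the levels of these genes was not tested. Capitals mark matches on either strand. The motifs searched were TGANTCA, the core letters bound by the transcription factor AP-1, and TGACNTCA, which resembles the cyclic AMP response element. Also searched were GGGCGG, known as the GC box, and the letters TATAAA, found in many promoters near the start of transcription. The TGACNTCA motif was added after the sequences had been seen.
Serpinb2, chr1:107511173-107511472, plus strand: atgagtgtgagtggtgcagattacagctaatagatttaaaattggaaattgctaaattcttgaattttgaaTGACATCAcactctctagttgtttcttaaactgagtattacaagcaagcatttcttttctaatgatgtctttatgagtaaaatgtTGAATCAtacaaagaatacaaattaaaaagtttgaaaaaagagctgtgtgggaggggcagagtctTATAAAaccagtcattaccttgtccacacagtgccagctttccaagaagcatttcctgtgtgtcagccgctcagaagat
Serpine2, chr1:79858616-79858915, minus strand: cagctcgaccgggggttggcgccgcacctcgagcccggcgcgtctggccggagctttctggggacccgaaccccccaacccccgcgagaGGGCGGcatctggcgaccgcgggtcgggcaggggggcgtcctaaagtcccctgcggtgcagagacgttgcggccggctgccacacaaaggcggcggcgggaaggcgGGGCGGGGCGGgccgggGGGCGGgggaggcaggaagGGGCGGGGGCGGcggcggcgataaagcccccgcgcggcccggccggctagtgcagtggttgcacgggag
Plaur, chr7:24462233-24462532, plus strand: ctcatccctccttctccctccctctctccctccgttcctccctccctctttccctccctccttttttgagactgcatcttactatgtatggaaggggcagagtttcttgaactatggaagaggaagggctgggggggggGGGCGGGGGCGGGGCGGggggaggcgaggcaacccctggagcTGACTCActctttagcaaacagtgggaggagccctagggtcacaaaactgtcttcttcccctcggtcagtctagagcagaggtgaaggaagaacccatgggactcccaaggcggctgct

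These windows differ in base composition and in the motifs they hold. The Serpinb2 window has 35.3% G and C, the Plaur window 59.3% and the Serpine2 window 77.7%, beside a median of 52.7% over 32851 windows of the same length. The Serpinb2 window holds 1 TATAAA with its first base at position -29 from the start site, 1 TGANTCA at -94 and 1 TGACNTCA at -179. The Plaur window holds 1 TGANTCA at -69 and 3 GGGCGG, of which 2 share a base, at -111, -105 and -100. The Serpine2 window holds 6 GGGCGG, some of them overlapping, and no match to the other motifs. Among all windows TGANTCA occurs in 7.81%, TGACNTCA in 8.83%, GGGCGG in 35.7% and TATAAA in 13.6%. RefSeq gives Serpinb2 a further start site 87 bases downstream. The RefSeq start of Serpine2 lies 2515 bases inside the locus of the count table. A match describes these letters only and does not show that a factor binds there.

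**Figure D1:**
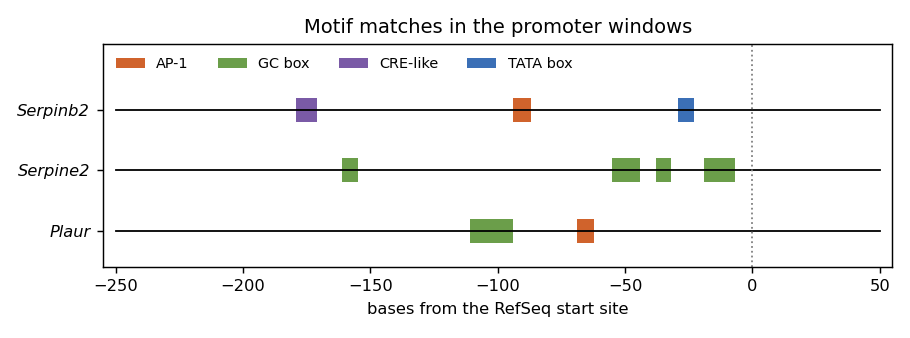
Positions of the motif matches in the promoter windows of Serpinb2, Serpine2 and Plaur; the x axis is the distance in bases from the RefSeq start site (dotted line) and each coloured block is a match, drawn to length. The AP-1 match lies at -94 in Serpinb2 and at -69 in Plaur, and the Serpine2 window holds GC boxes.

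Sequencing depth lay between 18631359 and 26645441 counts per library, so that 3 counts correspond to 0.110 to 0.156 CPM (counts scaled to library total and TMM factor), a floor that covers counting error only. The row named Maoa had 1124, 1151 and 1221 counts in the controls and 545, 664 and 490 in MAOA-KO. Its log2 fold change was -0.98 ± 0.05 (SE), but its listed locus on chromosome 19 is not that of Maoa, so it checks the labels only in part. By edgeR's quasi-likelihood test 9781 of 13243 genes, or 73.9%, had an adjusted p under 0.05, 4900 higher and 4881 lower. Scaled by library totals only, the split was 5759 higher and 4044 lower, with a median log2 fold change over all genes of 0.09. The CPM of the groups did not overlap for 75.1% of tested genes, 37.7% with MAOA-KO higher and 37.5% with MAOA-KO lower. Fibroblast markers were sparse: of 10 listed genes 9 had a row, Lum had none, and Pdgfra, Pdgfrb, Col1a1, Col1a2, Dcn, Thy1 and Fap stayed under 3 CPM on average in each group, of which Pdgfra, Pdgfrb and Col1a1 were called lower (log2 fold changes of -0.92, -1.08 and -1.31). Col3a1 ranged from 115.8 to 130.9 CPM with overlapping groups and was called higher (0.09). Acta2 ranged from 30.1 to 32.2 CPM in the controls and from 45.0 to 46.7 CPM in MAOA-KO, a 1.48-fold rise (adjusted p = 1.40e-10, edgeR). The summed CPM of 8 epithelial markers ranged from 2103 to 2232 in the controls and from 1214 to 1286 in MAOA-KO, mostly from the keratins Krt8, Krt18 and Krt19. Of 6 that were tested 4 were called lower and 1, Muc1, higher (0.701 ± 0.101 to 1.38 ± 0.166 CPM), and Cdh1, at 2.68 ± 0.157 and 2.28 ± 0.222 CPM, was not called. The 4 called lower were keratins and fell unequally, with log2 fold changes of -0.38 (Krt18), -0.93 (Krt8), -2.02 (Krt19) and -2.81 (Krt7). Krt7 went from 13.6 to 1.95 CPM on average. Epcam averaged 0.349 and 0.0866 CPM. Of 8 macrophage and leukocyte markers, Cd68 and Mrc1 had rows, with a summed CPM of 56.8 to 60.8 in the controls and 44.8 to 48.9 in MAOA-KO, whereas Ptprc, Csf1r, Adgre1, Itgam, Lyz2 and Fcgr1 had none. Most of that sum was Cd68, which fell from 53.0 ± 2.47 to 46.2 ± 1.99 CPM, while Mrc1 fell from 5.88 ± 0.747 to 0.347 ± 0.149 CPM (-4.05 ± 0.21 on the log2 scale, SE; adjusted p = 5.64e-15, edgeR). Endothelial markers summed to at most 0.733 CPM. The part of the epithelial and macrophage-type genes in the results below was not tested.

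Of the 5 members, Serpinb2, Serpine2, Plaur and Plat were lower in all 3 MAOA-KO libraries than in any control, and Plau was higher in all 3. The differences ranged from 26.8-fold lower for Serpinb2 to 1.08-fold higher for Plau. Among all tested genes the groups lay apart in 75.1%, with 37.5% lower and 37.7% higher in MAOA-KO, and nothing is read from the members' count because they were chosen on it. In bulk RNA, fewer cells that express a gene and less of its RNA per cell cannot be told apart.

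**Figure D2:**
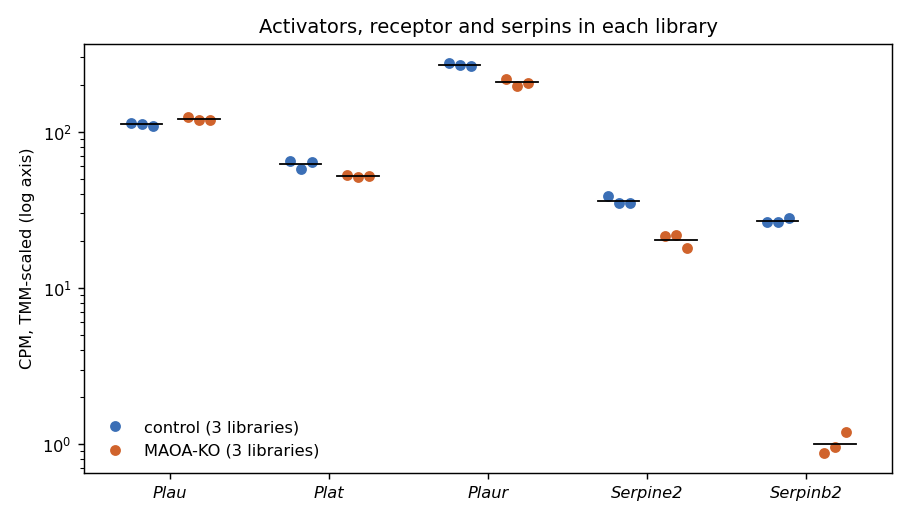
TMM-scaled CPM (log axis) of both activators, the receptor and both serpins in each library; points are libraries, 3 control (blue) and 3 MAOA-KO (orange), and black bars are group means. Plau and Plat sit close to their control levels, Plaur and Serpine2 somewhat below, and Serpinb2 far below.

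Plau, which encodes urokinase, lies on chromosome 14 from 20836660 to 20843385 on the plus strand (GRCm38.p6), and its deposited counts and FPKM imply the annotated transcript of 2342 bases with 11 exons. It had 114, 113 and 108 CPM in the 3 controls and 124, 119 and 119 CPM in the 3 MAOA-KO libraries. The lowest MAOA-KO library lay above the highest control, by a margin of a few CPM. Its log2 fold change was 0.11 ± 0.04 (SE), a rise in the mean of 8.05%. Of the 13243 tested genes, 10947 had a larger change in either direction. With library totals alone as the scale the value was 0.20, and the median of all tested genes then moved from 0.00 to 0.09.

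Plat, which encodes tissue plasminogen activator, lies on chromosome 8 from 22757727 to 22782844 on the plus strand. It had 64.6, 57.6 and 63.8 CPM in the controls and 53.1, 51.1 and 51.8 CPM in MAOA-KO. The control libraries spread more than the MAOA-KO libraries, with a coefficient of variation of 6.19% against 1.98%, and counting error alone gives 2.61% and 2.91%. Its log2 fold change was -0.25 ± 0.05 (SE), leaving 83.9% of the control mean, and -0.17 with library totals alone.

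Plaur, which encodes the urokinase receptor, lies on chromosome 7 from 24462484 to 24475968 on the plus strand. With 6294, 6418 and 6439 reads counted in the controls and 4761, 5380 and 3955 in MAOA-KO, it had the highest counts of the members. These correspond to 273, 269 and 264 CPM against 218, 197 and 206 CPM. All MAOA-KO libraries lay below all controls. The coefficient of variation was 5.21% in MAOA-KO and 1.73% in the controls, where counting error alone gives 1.46% and 1.25%. The log2 fold change was -0.38 ± 0.04 (SE), leaving 77.1% of the control mean, and -0.29 with library totals alone.

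Serpine2, which encodes protease nexin-1, lies on chromosome 1 from 79794197 to 79861180 on the minus strand. It had 38.4, 35.0 and 34.8 CPM in the controls and 21.5, 21.7 and 17.9 CPM in MAOA-KO. Each MAOA-KO library lay well below the lowest control, and MAOA-KO replicate 3 lay below the other two. The coefficient of variation was 10.4% in MAOA-KO and 5.70% in the controls, where counting error alone gives 4.62% and 3.42%. The log2 fold change was -0.81 ± 0.07 (SE), 1.76-fold lower.

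Serpinb2, which encodes PAI-2, lies on chromosome 1 from 107511423 to 107535478 on the plus strand, with 8 exons in a transcript of 1970 bases. It had 607, 628 and 680 counts in the controls and 19, 26 and 23 counts in MAOA-KO. In CPM the controls stood at 26.3, 26.3 and 27.9 and the MAOA-KO libraries at 0.871, 0.950 and 1.20. The MAOA-KO libraries kept 3.75% of the control mean and were above the level of 3 counts in each case. Their 68 counts in sum have an exact Poisson 95% interval of 52.8 to 86.2, and the spread between them, a coefficient of variation of 17.0%, was within the 21.0% that counting error alone gives. The log2 fold change was -4.75 ± 0.11 (SE), 26.8-fold lower, and 6 of the 13243 tested genes had a lower value. Serpinb10 is annotated on the same strand over part of this locus and has no row in the table, so reads from the overlap could not be separated here.

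**Figure D3:**
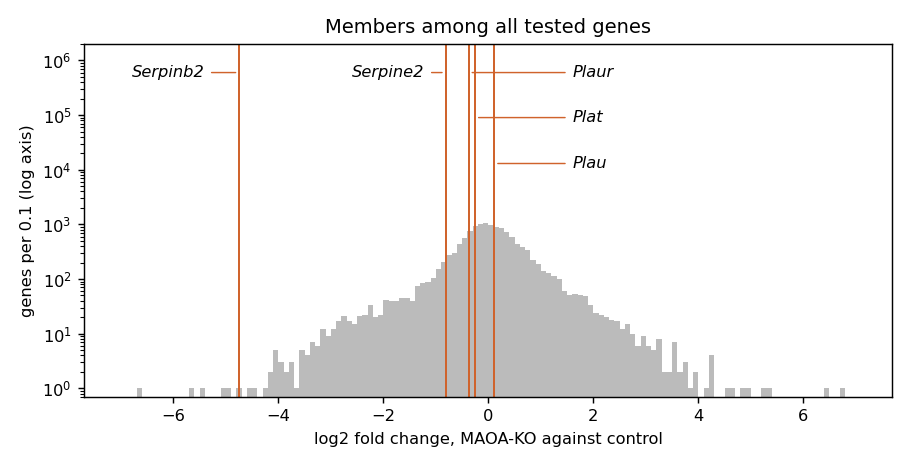
Distribution of the log2 fold change over the 13243 tested genes (bars, genes per bin of 0.1, log axis), with the 5 members as orange lines. Serpinb2 at -4.75 lies in the lower tail, whereas Plau, Plat and Plaur lie near the bulk of all genes.

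Levels of different genes were compared per transcript length, with the FPKM values (fragments scaled to transcript length and library total) that the authors deposited. In the controls the order was Plaur at 173 ± 2.93 FPKM (mean ± SD, n = 3 libraries per group), Plau at 46.2 ± 1.16, Plat at 23.8 ± 1.53, Serpine2 at 15.8 ± 0.915 and Serpinb2 at 13.2 ± 0.457 FPKM. In MAOA-KO the order was Plaur at 142 ± 7.85, Plau at 53.1 ± 1.30, Plat at 21.2 ± 0.489, Serpine2 at 9.50 ± 0.990 and Serpinb2 at 0.526 ± 0.0890 FPKM. The order was the same in both groups, and neighbours in it did not overlap between libraries. Since FPKM carries no TMM factor, changes between the groups are read from the CPM above and not from these means.

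The balance of activator transcripts to those of Serpine2 and Serpinb2 differed between the groups, with lower sums of these serpins in every MAOA-KO library than in any control. The activator sums in FPKM were slightly higher in MAOA-KO, but FPKM carries no TMM factor (0.968 to 0.972 in the controls, 1.03 in MAOA-KO). That gap in scale is of similar size, so no rise of activator transcript is read from these sums. Plau and Plat together made 70.0 ± 1.84 FPKM in the controls and 74.3 ± 1.78 FPKM in MAOA-KO. Serpine2 and Serpinb2 together made 29.0 ± 0.807 FPKM in the controls and 10.0 ± 0.904 FPKM in MAOA-KO. The quotient of the first sum over the second, taken within a library and so free of library scaling, ranged from 2.40 to 2.43 in the controls and from 6.89 to 8.20 in MAOA-KO. The make-up of the serpin sum differed too, since Serpinb2 made up 43.5% to 47.4% of it in the controls and 4.35% to 6.98% in MAOA-KO. These are transcript levels of the members alone, which were picked with their counts in view, so the shift in the quotient carries no test. They say nothing of secreted protein or of protease activity.

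**Figure D4:**
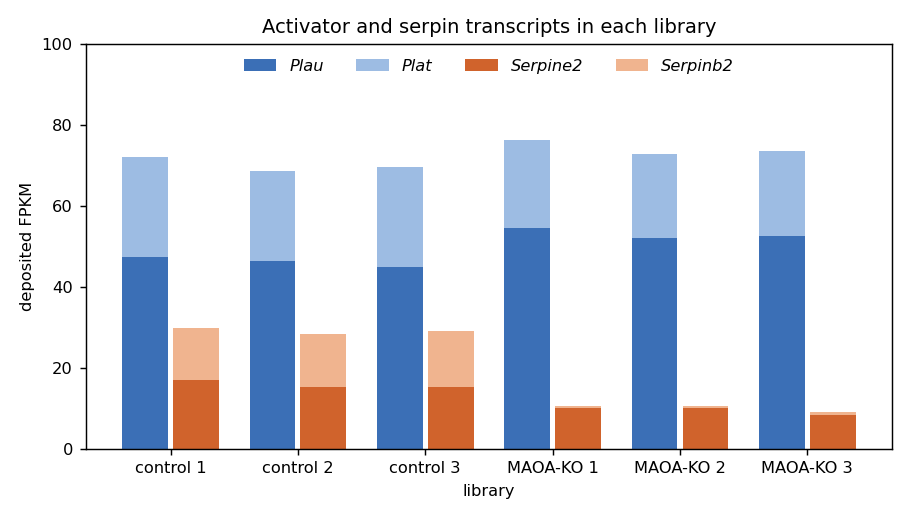
Deposited FPKM of both activators (blue stack) and of Serpine2 and Serpinb2 (orange stack) in each of the 6 libraries, from 0. The activator stacks stand between 68.5 and 76.3 FPKM in all libraries, and the serpin stacks between 28.3 and 29.9 in the controls and between 8.98 and 10.6 in MAOA-KO.

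Within the activators and the receptor, the proportions also differed. Plau exceeded Plat by 1.95 ± 0.143 times in the controls and by 2.50 ± 0.0126 times in MAOA-KO (mean ± SD of the FPKM quotient, n = 3). Plaur exceeded Plau by 3.74 ± 0.0368 times in the controls and by 2.67 ± 0.0884 times in MAOA-KO. Receptor transcript was thus the most abundant of the members in every library, with a smaller excess over its ligand in MAOA-KO.

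Other genes of the plasminogen system moved in both directions. Of 21 listed core genes 11 had a row and 9 were tested, and all 9 passed the edgeR test, 4 higher and 5 lower, beside 37.0% higher and 36.9% lower among all tested genes. Their median log2 fold change was -0.22, against 0.00 over all genes. When any 1 library was left out 10 genes were tested, 4 higher and 5 lower, and the median lay between 0.11 and 0.14. Plg, the plasminogen gene itself, had no row, and neither had Serpinf2, which encodes the plasmin inhibitor alpha-2-antiplasmin, nor Vtn, which encodes the uPAR ligand vitronectin. Fap and Serpinc1 were under 1 CPM and were not tested.

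Among these core genes, several encode plasminogen-binding proteins of the cell surface. Anxa2 and S100a10 encode the subunits of a complex that binds tPA and plasminogen. Anxa2 went from 1753 ± 34.7 to 1096 ± 6.96 CPM (log2 fold change -0.68 ± 0.03, SE; adjusted p = 1.18e-15, edgeR), and S100a10 from 512 ± 3.90 to 394 ± 7.60 CPM (-0.38 ± 0.03; adjusted p = 3.19e-10). Eno1, a glycolytic enzyme that also binds plasminogen, was 1.63-fold lower, with reads that its near-identical copy Eno1b may share. Plgrkt, a plasminogen receptor of the membrane, rose from 25.2 ± 1.18 to 34.5 ± 1.72 CPM (0.46 ± 0.06; adjusted p = 6.92e-08).

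The core list also holds receptors that take up or bind the activators and their complexes. Vldlr and Igf2r rose 1.42-fold and 1.49-fold. Lrp1, the endocytic receptor that clears protease and serpin complexes, fell from 522 ± 37.1 to 449 ± 17.8 CPM (-0.22 ± 0.04; adjusted p = 7.27e-05, edgeR). Mrc2, a collagen receptor that associates with uPAR, was called lower, at 1.70 ± 0.570 CPM in MAOA-KO against 2.83 ± 0.409 CPM in the controls. Serpini1, which encodes the tPA inhibitor neuroserpin, was called higher, from 0.629 ± 0.140 CPM in the controls to 1.16 ± 0.152 CPM in MAOA-KO.

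The other serpins moved in both directions, and Serpini1 is counted here as well as in the core list. Of 19 with a row 12 were tested, of which 6 rose and 5 (41.7%) fell, beside 37.0% and 36.9% of all tested genes. Their log2 fold changes had a median of -0.05. Without a filter on low counts 9 rose and 5 fell of 19, and the median was 0.57, so the sign of the median depends on genes near the detection limit. It was 0.04 with library totals only and 0.56 by DESeq2. Without 1 library it lay between 0.02 and 0.42, except without MAOA-KO replicate 2 (-0.09). Serpinh1, a collagen chaperone without protease inhibition, fell from 902 ± 25.5 to 443 ± 16.6 CPM (adjusted p = 2.16e-18, edgeR). Serpinb6a, an intracellular inhibitor, fell from 929 ± 22.8 to 571 ± 8.81 CPM, and its paralog Serpinb6b was 1.49-fold higher, with reads that both may share. Serpinb8, an intracellular inhibitor, rose from 5.21 ± 0.494 to 14.0 ± 1.02 CPM. Serpinb9b, a member of a group of close paralogs that may share reads, rose from 20.1 ± 1.98 to 33.2 ± 1.09 CPM (adjusted p = 1.41e-10, edgeR).

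**Figure D5:**
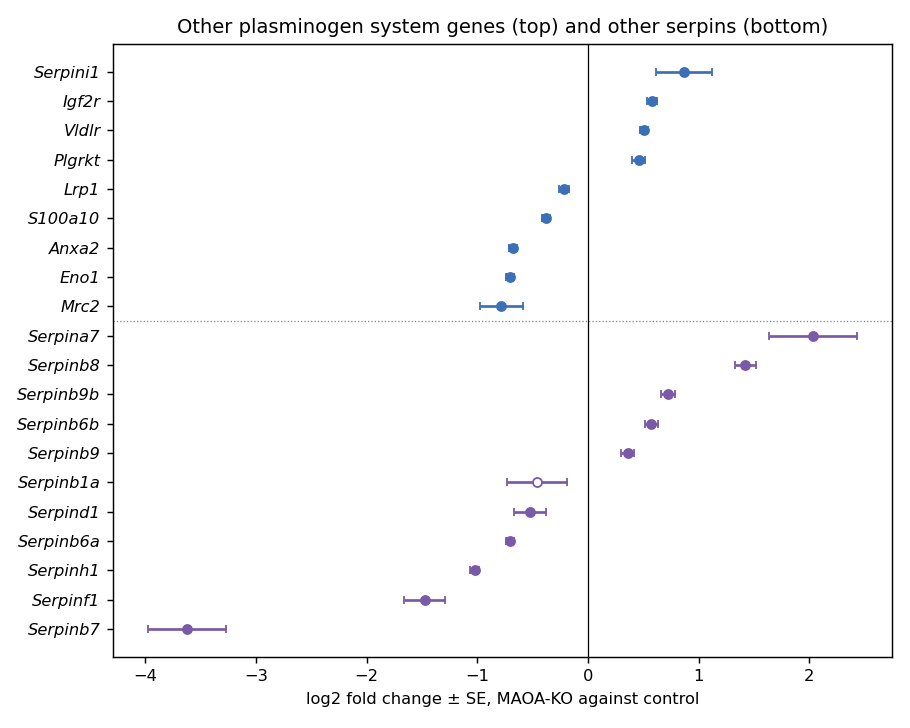
Log2 fold change of MAOA-KO against control with its SE for the tested core genes of the plasminogen system (blue, above the dotted line) and the other tested serpins (purple, below it); filled points passed an adjusted p of 0.05 in edgeR. Points lie on both sides of 0 in both lists, with Serpinb7 lowest. Serpini1, a member of both lists, is drawn with the core genes only.

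The Serpinb2 locus illustrates this split. Within 500000 bases of Serpinb2 the table holds Serpinb7 on one side and Serpinb8 on the other, both on the plus strand of chromosome 1. Serpinb7, from 107399655 to 107452689, averaged 0.122 CPM in MAOA-KO against 1.50 CPM in the controls (log2 fold change -3.62 ± 0.35, SE; adjusted p = 9.92e-10, edgeR). The MAOA-KO mean of Serpinb7 lies near the level of 3 counts, so the size of its fall is uncertain. Serpinb8, from 107590006 to 107610484, had a log2 fold change of 1.42 ± 0.09 (SE; adjusted p = 5.85e-13). Neighbouring genes of this serpin cluster thus lay on opposite sides of 0.

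Among proteins that plasmin or the activators cleave, 5 of 18 tested genes (27.8%) rose and 7 (38.9%) fell, beside 37.0% and 36.9% of all tested genes, and the median change was -0.04 on the log2 scale (0.04 with library totals only). Pdgfd, a growth factor precursor that urokinase can activate, rose from 2.59 ± 0.178 to 8.20 ± 0.864 CPM, and Vegfc, a lymphangiogenic factor, from 5.20 ± 0.384 to 11.9 ± 0.435 CPM. F2r, the thrombin receptor, rose 1.50-fold. Ltbp1, which holds latent TGF-beta in the matrix, fell from 211 ± 8.60 to 164 ± 3.56 CPM (adjusted p = 6.07e-09, edgeR). Fibrinogen genes had no row.

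Of 18 other tested serine proteases 8 (44.4%) rose and 6 (33.3%) fell, near the 37.0% and 36.9% of all tested genes, with a median of 0.01. Prss22, a tryptase-type protease, fell from 26.6 ± 1.52 to 5.51 ± 0.293 CPM, Hgfac, which activates hepatocyte growth factor, from 13.1 ± 0.892 to 2.73 ± 0.0868 CPM, and the kallikrein Klk10 from 8.81 ± 0.495 to 0.669 ± 0.0379 CPM (adjusted p at most 3.46e-16 for each, edgeR). Pcsk6, a proprotein convertase, rose from 26.5 ± 0.971 to 48.9 ± 0.486 CPM. The list also holds Htra2, which is a mitochondrial protease.

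Of 11 tested genes for tissue factor, thrombin signalling and anticoagulant proteins 5 (45.5%) rose and 4 (36.4%) fell, against 37.0% and 36.9% of all tested genes, with a median of 0.16. With library totals only 5 rose and 2 fell. F2r and F2rl1 are counted both in this list and among the cleaved proteins. Procr, the endothelial protein C receptor, fell from 81.4 ± 1.32 to 29.9 ± 1.33 CPM (adjusted p = 3.15e-19, edgeR). Gas6, a ligand of TAM receptors related to protein S, rose from 21.1 ± 1.32 to 90.4 ± 2.09 CPM. Thbs1, a matrix glycoprotein, rose 1.50-fold.

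AP-1 factors are known to act on the promoters of Plau, Plaur and Serpinb2, and ETS factors to act beside them on Plau. The list of both families had 8 members (44.4%) that fell and 4 (22.2%) that rose of 18 tested, where 36.9% and 37.0% of all tested genes did so, with a median of -0.14. With library totals only 8 fell and 6 rose, and the median was -0.06. Fosl1, an AP-1 subunit, fell from 89.8 ± 0.707 to 42.5 ± 1.62 CPM (adjusted p = 3.35e-17, edgeR). Of the other AP-1 and ATF genes, Jun, Junb and Fosb fell by 0.37 ± 0.06, 0.48 ± 0.05 and 0.60 ± 0.11 on the log2 scale (SE), whereas Fos, Jund and Atf2 rose by 0.88 ± 0.10, 0.35 ± 0.08 and 0.15 ± 0.05, and Atf2 was not called without control replicate 1 (0.10). The ETS factors Etv4 and Ets2 fell by 0.95 ± 0.05 and 0.52 ± 0.04 on the log2 scale, whereas Etv1 rose by 0.73 ± 0.05. Etv5 and Elk4, also ETS factors, were called lower (log2 fold changes of -0.35 ± 0.04 and -0.22 ± 0.05, SE). Fosl2, Atf3, Ets1, Elk1, Elk3 and Elf3 did not pass the test, but Ets1 and Elk3 did with library totals only, and Elf3 did without MAOA-KO replicate 2 (-0.44). Whether these factors bear on the members was not tested.

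The genes closest to each member were sought by the distance between profiles over the 6 libraries, as log2 CPM centred on the controls, among 10305 genes with a mean of 5 CPM or more in at least one group. Serpinb2 was closest to Acsbg1, at a distance of 0.636, and to Lamb3, at 1.45, both farther off than the nearest profiles of the other members. Serpine2 was closest to P4ha3 (0.0999) and Mtln (0.143). Plaur was closest to Eif1 and Dok1, at 0.0361 and 0.0385. Plau was closest to Serf2 and F11r, at 0.0171 and 0.0299, and Plat to Heatr6 and Ep400, each at no more than 0.0505. Because the distance mostly reflects the size of the group difference, genes with small differences have many near neighbours.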

How the data were processed

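RNA of 6 cultured samples was sequenced, 3 control and 3 MAOA-KO, grouped by title. Whole-number read counts and FPKM were deposited by the authors for each gene and library, per the file headers. They also deposited a comparison of their own, with log2 fold changes, p-values, adjusted p-values and −log10 columns. That comparison is not used here. The file headers give coordinates on GRCm38.p6, and mm10 is the build in the submitters' processing notes. Not given in the sources used here are aligner, counter and strand setting. The labels' protocols describe enrichment of small RNA, and how this bears on the gene counts is not stated. The lowest row total is 10 counts, which points to a filter before deposit.

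Genes were filtered with filterByExpr, scaled with TMM factors and tested with edgeR 4.0.16 (R 4.3.3, robust quasi-likelihood test, Benjamini-Hochberg adjustment over 13243 genes). The code was run on simulated counts with few genes changed, in random directions, and the common dispersion for every gene. Such counts cannot check the scaling of data in which most genes are called. Standard errors were derived from each estimate and its F statistic. Loci were compared with GENCODE M21 (GRCm38). All 128 listed rows other than Maoa had the length of an annotated transcript of the named gene within 0.1% and 1 base, and 127 its exact locus. Named genes are the members, the core list, up to 4 called genes of each further list, ranked by p (plus the leading gene of the other direction) and the 2 nearest profiles per member. Serpinb7, Serpinb6b, Htra2, the uncalled factors, the further AP-1, ATF and ETS genes and the cell type markers were named after their values were seen. A gene of the system is not reported here and is in no list or sum. Members and lists were chosen with earlier results of these data known.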

Additional observations from a re-analysis of the deposited data

How the results depend on the processing

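The main comparison called 9781 genes, and 12 alternatives gave 9111 (DESeq2 1.42.0) to 10274 (no filter). Without 1 library the count lay between 9357 and 9772. Over these alternatives, 141 of 144 values for the members, the lists and the total count stayed within the replicate spread or within 1.5 times of the count. The exceptions were Plau (0.20), Plaur (-0.29) and Plat (-0.17) with library totals only, where the scale itself shifts. Of 55 named genes of the lists, followed under each of the 12 alternatives, Col3a1 lost its call under 6 and Atf2 without control replicate 1, Ets1 and Elk3 gained one with library totals only (0.10 and 0.11), and Elf3 gained one without MAOA-KO replicate 2. The others of the 55 kept their call, and Etv5, Elk4 and Krt7 were not followed. Without 1 library the log2 fold changes lay between -4.87 and -4.66 for Serpinb2, -0.86 and -0.74 for Serpine2, -0.42 and -0.34 for Plaur, -0.31 and -0.23 for Plat, and 0.09 and 0.12 for Plau. Counts for the core list stayed at 9, the other serpins at 10 to 14.

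With the replicate block 10205 genes were called, and the calls of those 55 genes stayed as they were. Deviations of same-numbered libraries correlated at 0.0880, 0.0576 and 0.0346 over all tested genes, and at 0.471, 0.174 and 0.1001 over 8945 genes of at least 10 CPM, where control replicate 3 went with MAOA-KO replicate 2 at 0.358. Over those 8945 genes control replicate 1 with MAOA-KO replicate 2 stood at -0.450, and control replicate 3 with MAOA-KO replicate 1 at -0.396. The samples were left unpaired because the set over all tested genes lies under 0.1, and pairing by number is not excluded. Depth limits genes near 0.110 to 0.156 CPM, such as Serpinb7 in MAOA-KO.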
